A study of Homo sapiens with 8 samples.

Results

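The genes described here are 10 genes of the transcriptional program that KMT2A fusion proteins maintain in acute myeloid leukemia. They are HOXA9, HOXA10, HOXA7, HOXA5, MEIS1, PBX3, MEF2C and MYB, together with KMT2A and MLLT3, the 2 genes joined by the fusion that MOLM-13 cells carry. All rows of the transcript table that GENCODE assigns to one of these symbols were collected, which gave 189 transcripts of 10 of the 62639 genes in the table. The libraries came from MOLM-13, a human acute myeloid leukemia cell line, and were sequenced as long nanopore cDNA reads. The 4 shPTBP1 libraries carried a doxycycline (dox)-inducible shRNA against the splicing factor PTBP1, and the 4 shSCR libraries carried a scrambled shRNA. Cells of both groups received dox for 9 days, and the construct also expressed mCherry and, after dox, ΔLNGFR. The labels call the 4 libraries of a group biological replicates. Only 1 shRNA against PTBP1 was used, so an effect of PTBP1 loss and any other effect of this shRNA cannot be told apart.

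KMT2A is a histone methyltransferase whose rearrangement to a partner gene replaces its carboxyl-terminal part with a protein of the transcription elongation machinery. MLLT3 (AF9) is such a partner, and the resulting fusion keeps homeobox genes of the HOXA cluster and their cofactor MEIS1 at a high level, which in normal blood formation belongs to stem and progenitor cells. HOXA9 binds DNA together with MEIS1 and PBX3, and MEF2C and MYB are transcription factors that leukemias of this type also depend on.

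The libraries held 1528449 to 1613342 transcript counts and 12322 to 12589 genes with a count. PTBP1 itself was at 9.88 ± 3.55 CPM (counts in a library scaled to 1000000 counts and normalised for composition, SD, n = 4) in shPTBP1 and at 47.5 ± 7.81 CPM in shSCR, a log2 fold change of -2.26, and its paralog PTBP2 rose from 1.45 to 124 CPM. Of 7597 genes with enough counts for a test, 421 (5.54%) passed an adjusted p of 0.05 in edgeR's quasi-likelihood test, 242 (3.19%) lower and 179 (2.36%) higher in shPTBP1. Of 10 myeloid identity genes, 7 were tested, and AZU1, PRTN3 and ELANE, which encode granule proteins, held most of the summed level. CSF2RA had no count, SPI1 1 count, FLT3 53 counts and MPO 145 counts over all libraries. The summed level was 8306 to 9695 CPM in shPTBP1 and 7338 to 8076 CPM in shSCR. Most of this difference lay in PRTN3, at 3569 ± 318 CPM in shPTBP1 and 2616 ± 296 CPM in shSCR. AZU1 was at 3688 ± 355 against 3658 ± 60.2 CPM, ELANE at 907 ± 37.7 against 839 ± 26.7 CPM, and CD4 at 223 ± 6.78 against 308 ± 6.84 CPM. Of 12 markers of lymphoid, erythroid, megakaryocytic, stromal and epithelial cells, 7 had no count in any library, among them CD3E and HBB, and the sum of the 12 was 1.27 to 3.96 CPM in shPTBP1 and 1.92 to 6.37 CPM in shSCR.

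After PTBP1 KD, no change of level passed the test for any of the 10 program genes. Of them, 6 genes, HOXA9, HOXA10, HOXA7, PBX3, MEF2C and MYB, had enough counts for the test across genes, and 0 of these 6 were called by edgeR, against 5.54% of all genes tested. No member reached an unadjusted p under 0.05, and 0 were called by limma-voom or by DESeq2, which gave no adjusted p for HOXA7. Their median log2 fold change was -0.02, and that over all tested genes was -0.00014. The groups overlapped for all 6, and they did not overlap for 12.7% of the genes tested. At shares of 5.54% and 12.7%, 0 of 6 does not set the members apart from other genes. HOXA5, MEIS1, KMT2A and MLLT3 had 22 to 45 counts each over the 8 libraries and were below the filter. In bulk RNA, fewer cells of a type and less RNA per cell cannot be told apart.

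**Figure D1:**
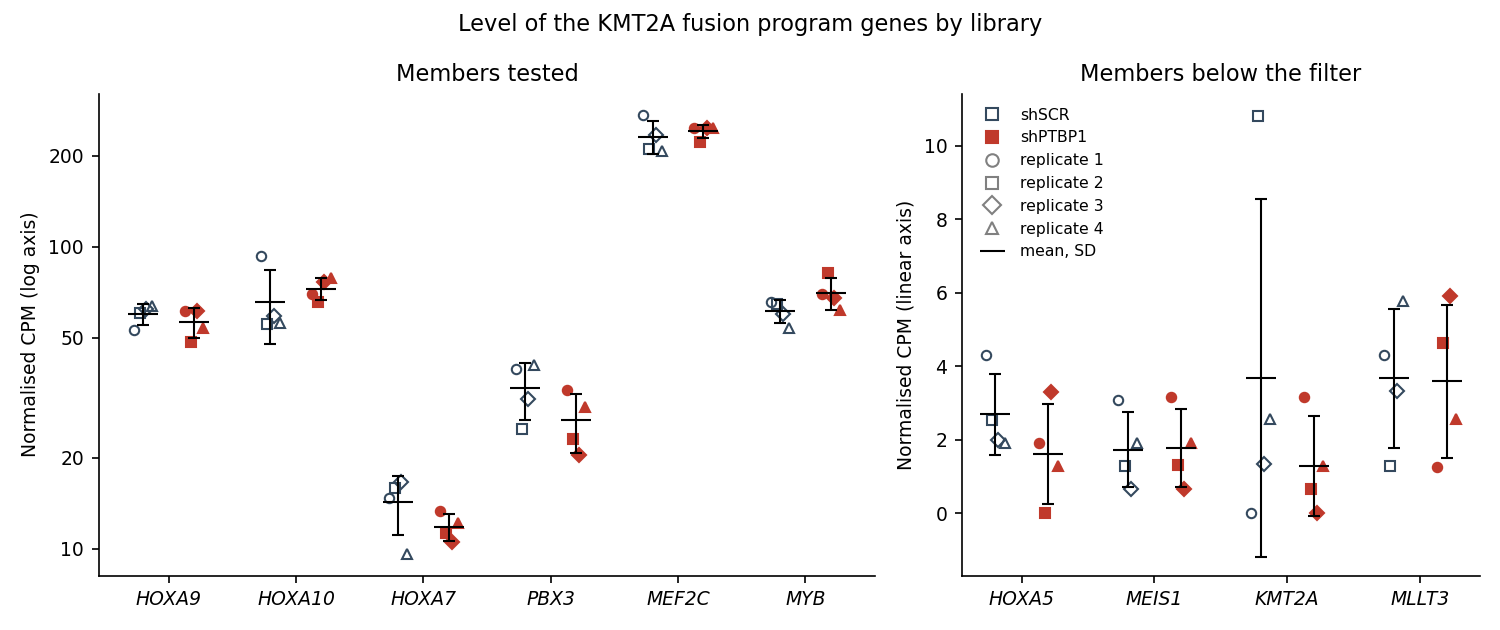
Normalised CPM of each program gene in each library, with the mean and SD per group (n = 4). Filled symbols are shPTBP1 and open symbols shSCR, and the marker shape gives the replicate number. The left axis is logarithmic and holds the 6 tested genes, and the right axis is linear and holds the 4 genes below the filter. The groups overlap for every gene, and shSCR replicate 1 stands above the other 3 control libraries for HOXA10, at 92.8 CPM.

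Levels per length of transcript, averaged over the 8 libraries, set the members in a wide order, which differed from that of CPM alone. Without division by length, MEF2C was at 236 CPM, HOXA10 at 69.1, MYB at 65.6, HOXA9 at 57.9, PBX3 at 30.3 and HOXA7 at 13.0 CPM. Whether division by length suits counts of long reads was not tested. Per length, the order was as follows. MEF2C was highest at 62.5 CPM per kb, followed by HOXA9 at 29.6, HOXA10 at 27.7, MYB at 20.3, PBX3 at 11.2 and HOXA7 at 6.58 CPM per kb. HOXA5 was at 1.29, MLLT3 at 0.552, KMT2A at 0.426 and MEIS1 at 0.367 CPM per kb. Within the last 4 the order rests on 22 to 45 counts per gene, so neighbours in it are not distinguished. The myeloid transcription factor SPI1 had 1 count, and DOT1L, the methyltransferase that the fusion recruits, had 0 counts in all libraries, although cells of this type use both. A low or missing count in this table was therefore not read as absence of the transcript.

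The HOX factors lie beside each other on the minus strand of chromosome 7 (GENCODE on hg38). HOXA9 (chr7:27162438-27175180), the factor most closely tied to KMT2A-rearranged leukemia, was at 61.4, 48.2, 61.2 and 53.8 CPM in shPTBP1 replicates 1 to 4 and at 52.8, 60.5, 62.0 and 63.5 CPM in shSCR replicates 1 to 4. The lowest library was a knockdown and the highest a control, and the ranges overlapped over most of their length. The log2 fold change was -0.09 with a 95% interval from -0.33 to 0.16 (edgeR adjusted p = 0.740). The interval corresponds to a level between 0.795 and 1.11 times that of shSCR, and larger changes of HOXA9 lay outside it.

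HOXA10 (chr7:27170605-27180261), a neighbouring HOX factor active in the same progenitors, was at 69.6, 65.4, 76.4 and 78.8 CPM in shPTBP1 and at 92.8, 55.4, 58.7 and 55.8 CPM in shSCR. All 4 knockdown libraries exceeded 3 of the 4 controls, and shSCR replicate 1 exceeded every knockdown library. The log2 fold change was 0.14 (interval -0.20 to 0.48, edgeR adjusted p = 0.691). Without shSCR replicate 1 it was 0.36 with an adjusted p of 0.0902, still above the threshold. HOXA7 (chr7:27153716-27157936), expressed in early progenitors, was at 10.5 to 13.3 CPM in shPTBP1 and 9.62 to 16.7 CPM in shSCR, a log2 fold change of -0.27 (interval -0.75 to 0.22, adjusted p = 0.576). HOXA5 (chr7:27141052-27143681) had 3, 0, 5 and 2 counts in shPTBP1 and 7, 4, 3 and 3 in shSCR, and without the filter its log2 fold change was -0.71 (interval -2.09 to 0.68).

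No call was made in the rest of the HOXA cluster. Of 14 other genes of the locus, 4 were tested and 0 were called in either direction, against 5.54% of all genes tested. At this share, 0 of 4 does not set the locus apart. The median log2 fold change of the 4 was 0.04. The 2 with the highest level were HOXA11-AS, an antisense RNA of the cluster, at 23.4 ± 3.15 CPM in shPTBP1 and 28.4 ± 4.45 CPM in shSCR, and HOXA13 at 11.2 ± 1.96 and 10.3 ± 2.73 CPM. HOXA2, HOXA3, HOXA4, HOXA6 and HOXA-AS2 had no count in any library. An unnamed protein-coding gene that overlaps both HOXA9 and HOXA10 (ENSG00000257184, chr7:27163535-27180013) held 2 counts in all, so a read-through of the 2 genes took almost none of their counts. Whether the counting used strand is not given in the sources used here, so reads of HOXA genes and of their antisense partners may not be separated.

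MEIS1 (chr2:66433452-66573869), the DNA-binding cofactor of HOXA9, had 5, 2, 1 and 3 counts in shPTBP1 and 5, 2, 1 and 3 counts in shSCR. Its level was 1.77 ± 1.06 against 1.73 ± 1.03 CPM, and without the filter the interval of its log2 fold change ran from -1.43 to 1.48, so that changes of over 2-fold in either direction lay within it at this depth. PBX3 (chr9:125747345-125967377), the other cofactor, was at 33.5, 23.1, 20.4 and 29.5 CPM in shPTBP1 and at 39.3, 24.8, 31.3 and 40.4 CPM in shSCR. Of the knockdown libraries, 2 were below all controls and 2 lay within their range. The log2 fold change was -0.35 (interval -0.77 to 0.07, edgeR adjusted p = 0.364). Among 16 relatives of the members (other MEIS, PBX, MEF2, MYB and HOXB genes and the paralogs of KMT2A and MLLT3), 4 were tested. Of these 4, 0 were called, against 5.54% of all genes tested, with a median log2 fold change of -0.21. The 2 with the highest level were MEF2D, at 38.8 ± 4.92 against 34.0 ± 5.48 CPM, and TGIF1, a homeobox relative of MEIS1, at 19.7 ± 4.67 against 20.8 ± 2.19 CPM.

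MEF2C (chr5:88717117-88904257), a MADS-box factor that fusion proteins hold at a high level, had the largest level of the members. It was at 247, 222, 246 and 246 CPM in shPTBP1 and at 272, 211, 235 and 208 CPM in shSCR. The knockdown libraries fell inside the range of the controls. The log2 fold change was 0.06 (interval -0.13 to 0.24, edgeR adjusted p = 0.799), the narrowest interval of the 6. MYB (chr6:135181308-135219173), a factor of progenitor growth, was at 69.6, 81.9, 67.8 and 61.5 CPM in shPTBP1 and at 65.8, 64.3, 60.0 and 53.9 CPM in shSCR. Of the knockdown libraries, 3 were above all controls and 1 lay within their range. The log2 fold change was 0.20 (interval -0.04 to 0.44, adjusted p = 0.361), and the exact two-sided permutation p was 0.114, where 4 against 4 libraries allow no p below 0.0286.

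The fusion partners could be described only in outline. No row of the table names the fusion transcript, and counts from the fusion were not separated from those of the intact alleles. KMT2A (chr11:118436456-118526832) had 5, 1, 0 and 2 counts in shPTBP1 and 0, 17, 2 and 4 in shSCR. Of the 23 control counts, 17 came from shSCR replicate 2, and 16 of these were assigned to KMT2A-228, a 7-exon transcript that begins 73.5 kb into the 90.4-kb gene and had no count elsewhere. Over all libraries, 24 of 31 KMT2A counts fell on KMT2A-228 and the similar KMT2A-205, and 3 fell on transcripts that span the gene. KMT2A-228 and KMT2A-205 lie near the 3′ end of KMT2A, in the part that the fusion lacks. Transcripts with at least 10 counts in 1 library and 0 in the 7 others occurred 99 times in the table, 5 to 18 per library and 9 in shSCR replicate 2. MLLT3 (chr9:20341669-20622499), the carboxyl-terminal partner, had 22 counts in shPTBP1 and 23 in shSCR, of which 44 of 45 were assigned to its full-length coding transcript MLLT3-202. Without the filter the log2 fold changes of KMT2A and MLLT3 were -1.45 (interval -3.05 to 0.15) and -0.03 (interval -1.11 to 1.05).

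Beside the members, 9 genes of the KMT2A complex and 17 genes of fusion partners and the elongation complexes were examined. Which of the 9 act with the fusion, and which only with intact KMT2A, was not tested. Of the complex, 8 genes were tested and 0 were called, against 5.54% of all genes tested. Of the 8, 7 had a negative log2 fold change, as had 3802 of all 7597 genes tested, and their median was -0.33. The highest were DPY30, a core subunit, at 282 ± 26.1 CPM in shPTBP1 and 314 ± 8.01 CPM in shSCR, and ASH2L, another, at 89.4 ± 11.7 and 94.7 ± 11.6 CPM. MEN1, which encodes menin, the protein that tethers KMT2A to its targets, was at 4.85 ± 1.31 against 7.86 ± 1.65 CPM (log2 fold change -0.68, interval -1.39 to 0.03, edgeR adjusted p = 0.280). Unadjusted, 2 genes of the list were under 0.05. WDR5, a core subunit, had a log2 fold change of -0.48 (interval -0.87 to -0.10, edgeR adjusted p = 0.145), and the cofactor HCFC1 one of -0.95 (interval -1.85 to -0.05, adjusted p = 0.235) with 67 of its 190 counts in shSCR replicate 4. MEN1, WDR5 and HCFC1 are outside the rule for named genes and were picked after their values were seen. Of the elongation genes, 13 were tested and 0 were called, against the same 5.54%, with a median log2 fold change of 0.04. The highest were LEO1 and RTF1, which belong to the PAF1 complex of elongating polymerase. LEO1 was at 152 ± 13.2 CPM in shPTBP1 and 155 ± 22.8 CPM in shSCR (log2 fold change -0.03, interval -0.25 to 0.20, edgeR adjusted p = 0.924). RTF1 was at 57.1 ± 8.98 against 69.3 ± 9.02 CPM (log2 fold change -0.28, interval -0.57 to 0.0049, adjusted p = 0.269).

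**Figure D2:**
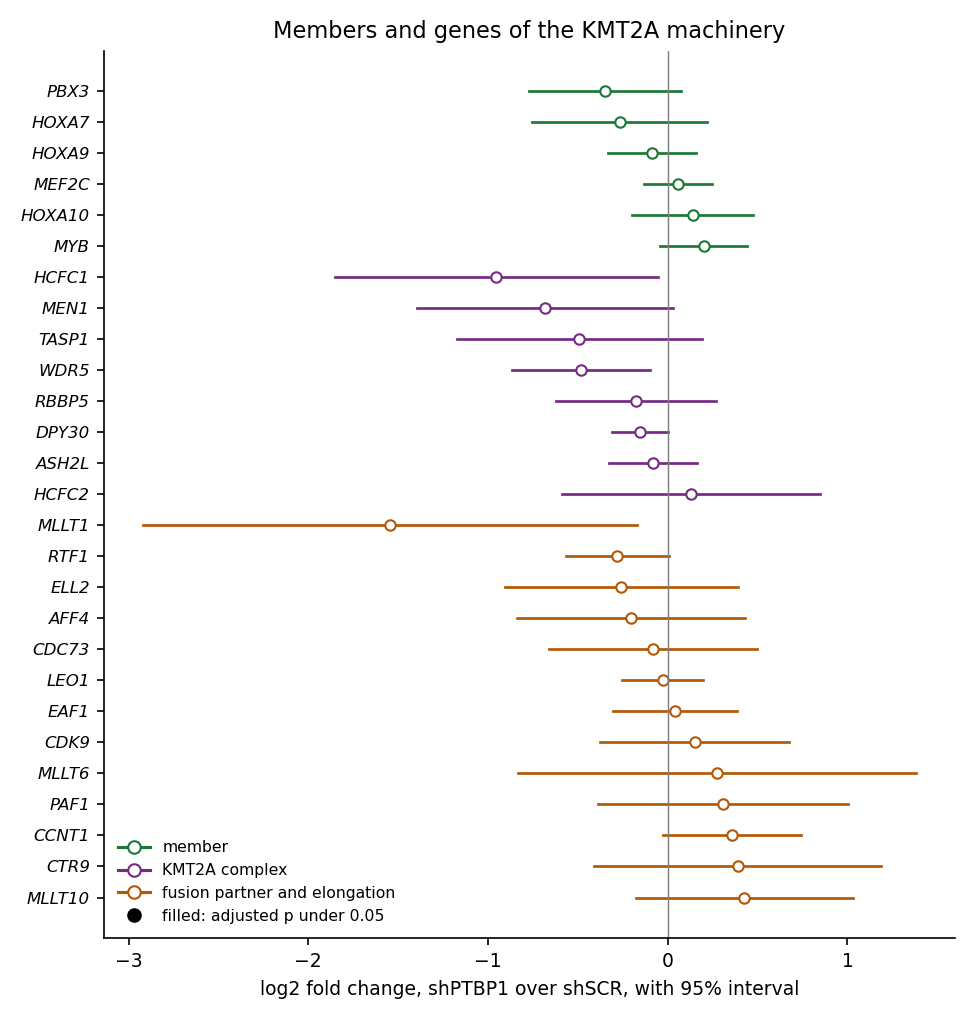
Log2 fold change of shPTBP1 over shSCR with its 95% interval (edgeR, n = 4 against 4) for the tested program genes, the KMT2A complex and the fusion partner and elongation genes. A filled point marks an adjusted p under 0.05. The intervals of all 6 program genes include 0, and no point shown is filled.

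Of 22 listed other genes that KMT2A fusions are known to bind, 9 were tested and 0 were called, against 5.54% of all genes tested. Their median log2 fold change was 0.07. SATB1, a chromatin organiser, was at 191 ± 2.75 against 207 ± 12.1 CPM, a log2 fold change of -0.12 (edgeR adjusted p = 0.381). Its groups did not overlap, at 188 to 195 CPM in shPTBP1 and 195 to 224 CPM in shSCR, the 1 gene of the list for which this held, against 12.7% of all genes tested. ZNF521, a progenitor zinc-finger factor, was at 135 ± 12.8 against 142 ± 13.1 CPM. Genes of myeloid maturation were called in part. Of 10 tested among 20 listed, 3 rose and 1 fell, where 2.36% and 3.19% of all tested genes did so. The lysosomal glycoprotein CD68 was at 425 ± 20.2 CPM in shPTBP1 and 332 ± 35.8 CPM in shSCR, the calprotectin subunit S100A8 at 42.4 ± 3.81 and 28.2 ± 4.91 CPM, and FUT4, which makes the CD15 antigen, at 61.5 ± 5.38 and 41.5 ± 4.64 CPM. The macrophage growth factor receptor CSF1R fell from 14.4 ± 2.35 to 7.28 ± 1.60 CPM. ITGAM, which encodes CD11b and is outside the rule for named genes, was lower in shPTBP1 but not called. It was at 6.75 ± 4.86 CPM in shPTBP1 and 12.3 ± 2.17 CPM in shSCR (log2 fold change -0.85, interval -1.67 to -0.03, edgeR adjusted p = 0.245). With each of the 8 libraries left out in turn, FUT4 stayed past the threshold every time, CD68 in 5 fits, S100A8 in 3 and CSF1R in 1, and DESeq2 did not call S100A8 (adjusted p = 0.0801) and gave no adjusted p for CSF1R. The summed level of the 20 was 1070 to 1259 CPM in shPTBP1 and 862 to 1032 CPM in shSCR. Most of this sum and of its difference between groups lay in CD68 and LYZ. LYZ, outside the rule for named genes and not called, was at 345 ± 60.7 CPM in shPTBP1 and 274 ± 25.4 CPM in shSCR. Of the 10 maturation genes tested, 6 had a positive and 4 a negative log2 fold change. Of 7 tested myeloid identity genes, PRTN3 rose and CD4 fell, against the same shares of all genes, and both calls held with each library left out. The part of these differences in any value of the program genes was not tested.

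Splicing was then compared within the members, since PTBP1 is a regulator of exon choice that binds pyrimidine-rich RNA and often holds exons out of the mature transcript. Of the 189 transcripts, 70 had a count. The filter on transcripts left 4 of them, all of MEF2C, and 0 of these 4 were called, against 61 of 5464 transcripts (1.12%) with an adjusted p under 0.05 in edgeR's diffSpliceDGE test and a change of at least 10 percentage points, and 1.78% with the adjusted p alone. The shares did not overlap between groups for 0 of the 4 and for 10.7% of the transcripts tested. To reach the members with fewer counts, transcripts were joined into splicing events, in which each count was assigned to the form with or without a given exon or splice site. This step was chosen after the values were seen. The members held 21 of 12703 events over all genes, 10 of them cassette exons. By the same thresholds 1 of the 21 was called, against 0.708% of all events, and this was 1 of the 10 cassette exons, against 1.12% of 5781 cassette exons. For 0 of the 21 did the groups not overlap, against 5.97% of all events and 8.04% of cassette exons.

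The exon called was the 363-base alternative exon of MYB (chr6:135196961-135197323, plus strand), which adds to the 640-residue protein of the common form MYB-205 an in-frame segment and gives the 761-residue protein of MYB-203. Of the counts that could be assigned, 5.83%, 8.40%, 6.06% and 4.40% included the exon in shPTBP1 replicates 1 to 4, and 25.5%, 7.00%, 24.4% and 22.2% in shSCR. Control replicates 1, 3 and 4 were above all knockdown libraries, and shSCR replicate 2 lay among the knockdown values. Inclusion fell from 19.8% ± 8.63 in shSCR to 6.17% ± 1.66 in shPTBP1 (n = 4 each, diffSpliceDGE adjusted p = 0.0106). In pooled counts, 26 of 412 included it in shPTBP1 (6.31%, exact 95% interval 4.16 to 9.11%) and 70 of 361 in shSCR (19.4%, 15.4 to 23.9%), where the intervals cover counting error only. The exact two-sided permutation p over the 8 libraries was 0.0571. The call was lost without shSCR replicate 1 (a difference of -11.7 points, diffSpliceDGE adjusted p = 0.0873) and without shSCR replicate 3 (-12.1 points, 0.0689). Without shSCR replicate 2 the difference was -17.9 points with an adjusted p of 0.000238. The remaining fits kept the call, most of them close to the threshold. Their adjusted p was 0.0416, 0.0126, 0.0452 and 0.0491 without shPTBP1 replicates 1 to 4, and 0.0479 without shSCR replicate 4.

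By transcript, MYB-203 held 5.88% ± 1.62 of MYB counts in shPTBP1 and 18.2% ± 7.62 in shSCR, and MYB-205 held 81.1% ± 3.24 and 68.9% ± 8.17, each with an exact permutation p of 0.0571. MYB-203 was below the main filter on transcripts. It was called where transcripts with a mean of at least 10 counts were tested (diffSpliceDGE adjusted p = 0.0170) and where a total of 20 counts was required (0.0434), and MYB-205 was called in neither.

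In PBX3 a difference of the opposite sign did not pass the threshold. Its 113-base exon (chr9:125962102-125962214, plus strand) is not a multiple of 3 bases long, so that its inclusion sets the reading frame of the last exons. The form with the exon, PBX3-204, encodes 434 residues (the PBX3a form), and the form without it, PBX3-201, encodes 351 residues (PBX3b). The exon was included in 30.2%, 34.3%, 19.4% and 30.4% of the counts in shPTBP1 and in 7.81%, 23.1%, 12.8% and 15.9% in shSCR. Of the knockdown libraries, 3 were above all controls, and shPTBP1 replicate 3 lay below shSCR replicate 2. The means were 28.6% ± 6.42 and 14.9% ± 6.39, a difference of 13.7 points (diffSpliceDGE adjusted p = 0.174, exact permutation p = 0.0571). Pooled, 48 of 165 counts (29.1%, interval 22.3 to 36.7%) included it in shPTBP1 and 30 of 213 (14.1%, 9.71 to 19.5%) in shSCR.

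As a single transcript, PBX3-204 held 28.3%, 34.3%, 19.4% and 28.3% of PBX3 counts in shPTBP1 and 6.25%, 17.9%, 12.8% and 12.7% in shSCR. All knockdown libraries were above all controls, with the smallest exact permutation p this design allows, 0.0286. Groups that do not overlap were found for 10.7% of the 5464 transcripts that passed the main filter, which PBX3-204 did not pass. The share among transcripts with as few counts was not measured. Over all transcripts with at least 20 counts, the diffSpliceDGE adjusted p of PBX3-204 was 0.491. PBX3-201 remained the main form, at 62.1% ± 2.46 and 66.9% ± 4.77. PBX3-213, which carries 2 further exons of 122 and 199 bases, held 5.87% ± 5.99 against 13.6% ± 5.27 (exact permutation p = 0.143).

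**Figure D3:**
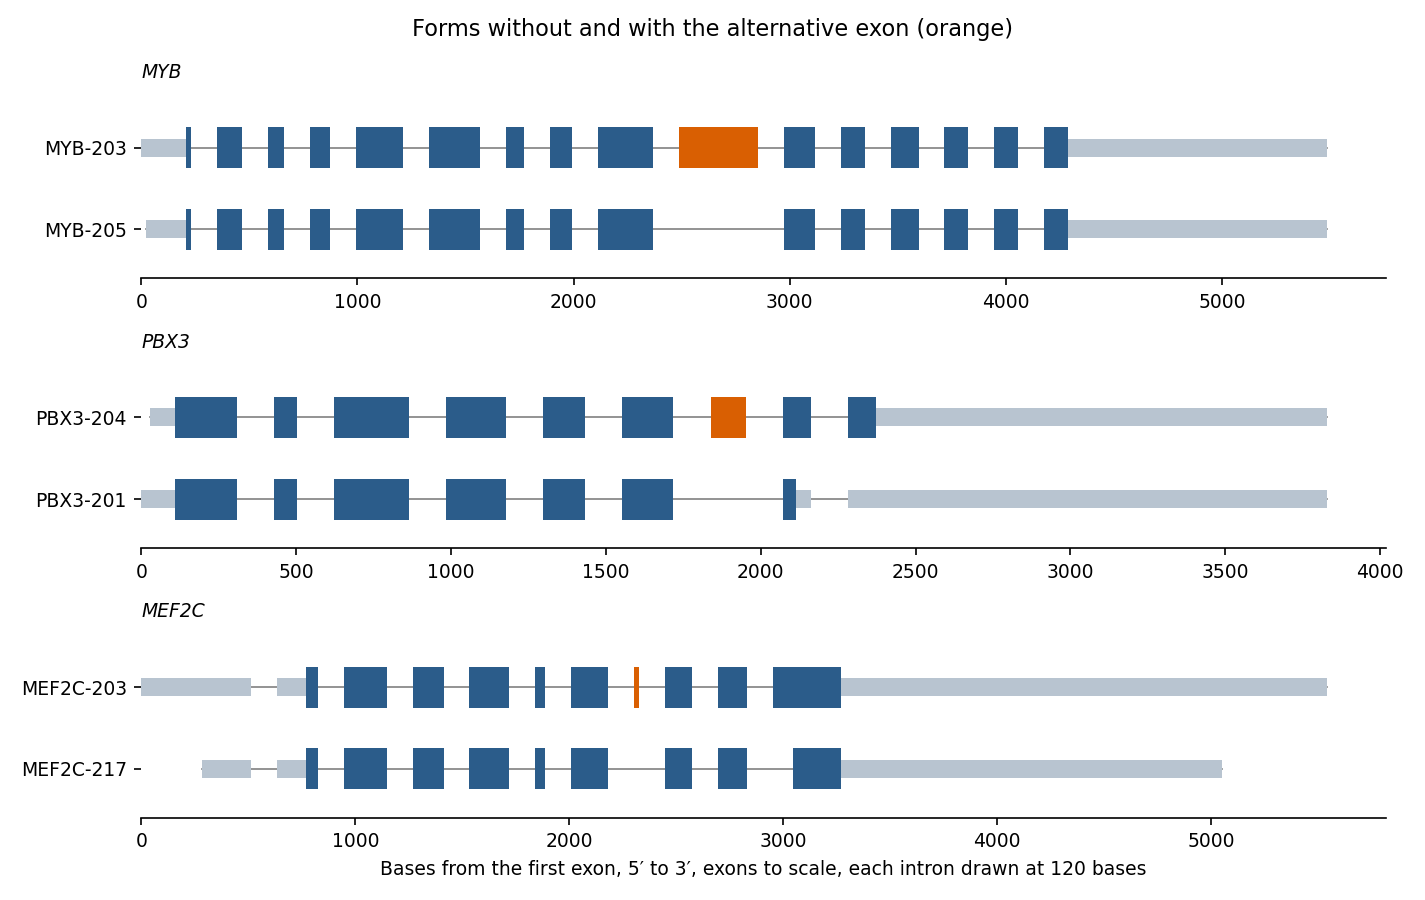
Exons of the paired forms of MYB, PBX3 and MEF2C from GENCODE, 5′ to 3′, with exons to scale in bases and every intron drawn at one fixed width. Coding parts are tall and blue, untranslated parts low and grey, and the alternative exon is orange in the upper form of each pair. Without its 113-base exon PBX3 stops earlier in the reading frame, whereas the MYB exon of 363 bases leaves the frame downstream intact.

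The sequences at these exons are shown because PTBP1 is known to bind CU-rich RNA in the intron before many of its target exons. Each is read from hg38 on the sense strand as DNA, with intron bases in lower case and exon bases in capitals. The MYB stretch (chr6:135196861-135197160) holds 100 intron bases and the first 200 exon bases, the PBX3 stretch (chr9:125962002-125962244) the whole exon between 100 and 30 intron bases, and the MEF2C stretch (chr5:88730181-88730334, minus strand) likewise for the 24-base exon described next.
MYB: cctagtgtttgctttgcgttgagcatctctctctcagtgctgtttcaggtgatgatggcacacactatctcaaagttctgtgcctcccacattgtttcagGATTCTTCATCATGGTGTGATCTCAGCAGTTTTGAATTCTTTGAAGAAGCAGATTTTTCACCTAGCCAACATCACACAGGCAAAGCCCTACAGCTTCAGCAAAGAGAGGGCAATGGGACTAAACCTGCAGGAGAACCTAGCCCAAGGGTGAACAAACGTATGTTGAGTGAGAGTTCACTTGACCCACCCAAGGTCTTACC
PBX3: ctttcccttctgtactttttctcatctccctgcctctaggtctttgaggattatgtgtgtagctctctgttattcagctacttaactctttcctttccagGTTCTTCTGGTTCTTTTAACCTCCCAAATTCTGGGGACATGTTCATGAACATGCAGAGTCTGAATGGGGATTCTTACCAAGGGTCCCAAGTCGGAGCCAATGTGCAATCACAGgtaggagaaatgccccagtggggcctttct
MEF2C: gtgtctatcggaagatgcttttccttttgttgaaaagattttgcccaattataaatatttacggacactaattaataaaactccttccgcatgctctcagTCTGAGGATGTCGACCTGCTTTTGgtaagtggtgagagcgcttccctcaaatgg

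In the 100 intron bases before the exon, the letters CTCTCT were found 2 times at MYB, in one run in which the matches overlap, 1 time at PBX3 and 0 times at MEF2C, on the sense strand only. The same window held CTCTCT at 7.95% of 5776 cassette exons of all genes. The letters TCTT were found 2 times at PBX3 and 0 times at the other 2, and were present in 64.1% of those windows. Pyrimidines made up 73 of the 100 bases at PBX3, 62 at MYB and 56 at MEF2C, where the median over the 5776 exons was 56. These are matches of letters and say nothing of binding.

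MEF2C was the best counted member for splicing, and none of its events was called. Its 24-base exon (chr5:88730211-88730234), a short in-frame insert in the transactivation region that is best known from muscle and brain, was included in 44.1%, 43.0%, 43.0% and 39.8% of counts in shPTBP1 and in 46.2%, 42.9%, 40.8% and 45.1% in shSCR. The groups overlapped almost fully, at 42.5% ± 1.84 and 43.8% ± 2.40 (exact permutation p = 0.514). A 96-base segment at an alternative splice site nearer the end of the coding sequence was kept in 49.3% ± 2.59 and 46.6% ± 3.78 of counts (exact permutation p = 0.286). The 2 leading transcripts, MEF2C-217 and MEF2C-203, which encode 433 and 473 residues, held 43.8% ± 2.65 against 45.6% ± 3.45 and 32.9% ± 1.85 against 33.5% ± 1.74.

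**Figure D4:**
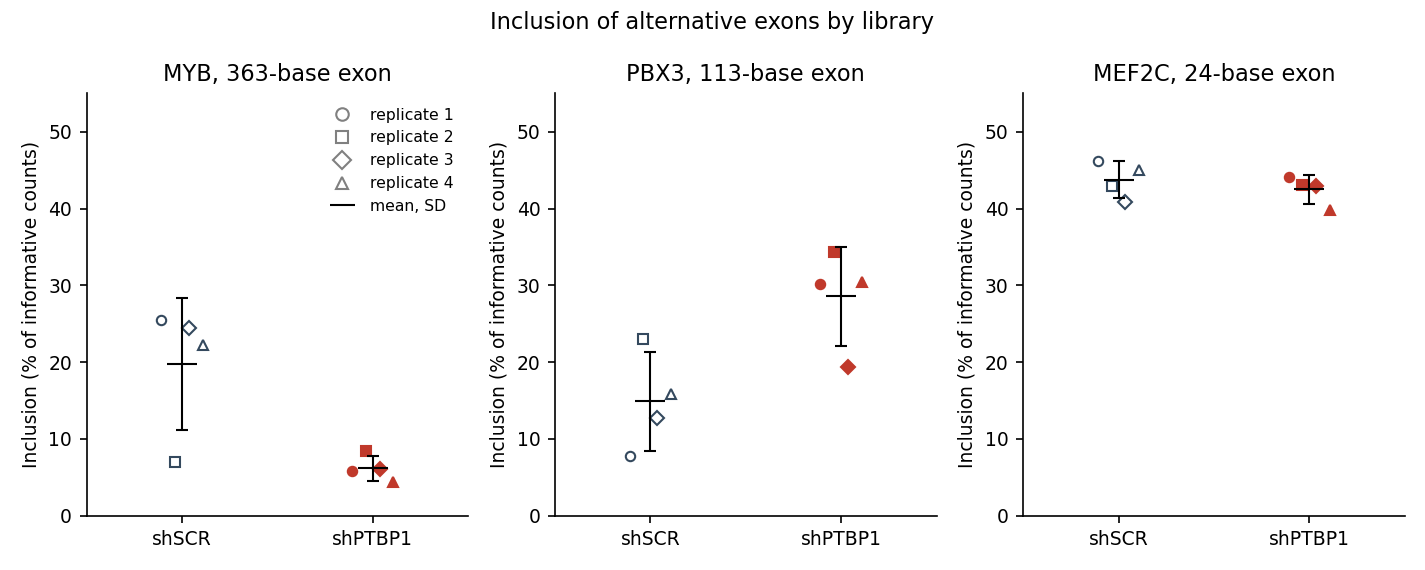
Inclusion of the alternative exons of MYB, PBX3 and MEF2C in each library, as the percentage of counts that can be assigned to the form with or without the exon, with the mean and SD per group (n = 4). Filled symbols are shPTBP1 and open symbols shSCR. MYB inclusion was 6.17% in shPTBP1 and 19.8% in shSCR with shSCR replicate 2 among the knockdown values, PBX3 inclusion was 28.6% and 14.9%, and MEF2C inclusion was 42.5% and 43.8%.

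The HOX genes were each expressed almost wholly as one form. HOXA9-201, the 272-residue homeodomain protein, held 91.8% ± 1.06 of HOXA9 counts in shPTBP1 and 91.5% ± 1.89 in shSCR, and HOXA10-201 held 96.5% ± 2.45 and 94.9% ± 2.04 of HOXA10 counts. A 173-base segment of HOXA9 that HOXA9-202 splices out was kept in 93.8% ± 0.637 and 94.0% ± 1.83 of counts (diffSpliceDGE adjusted p = 0.993). HOXA7-201 held all HOXA7 counts in 7 libraries and 78.9% of 19 counts in shPTBP1 replicate 4, and HOXA5-201 held every HOXA5 count. MEIS1-201 held 57.5% ± 43.5 and 78.3% ± 31.4 of MEIS1 counts, a share of 22 counts in all, 14 of them on MEIS1-201.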

How the data were processed

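RNA of MOLM-13 cells was taken after 9 days of dox in 4 shPTBP1 and 4 shSCR libraries. The authors prepared nanopore cDNA libraries, used minimap2 for alignment to hg38, kept reads of high mapping quality and obtained transcript counts from StringTie (versions and annotation not given in the sources used here). The deposited counts are whole numbers per transcript without normalization. The deposited CPM table, named TPM by the authors, holds the same counts scaled to 1000000 per library without division by length, as checked to within 1e-06. Groups and replicate numbers came from the labels.

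Transcripts were summed per gene through GENCODE version 44, which held 252562 of 254070 identifiers. The 1508 unmatched transcripts were left out. Genes were tested with edgeR 4.0.16 (TMM, filterByExpr with a minimum count of 10, quasi-likelihood test, group as the only term) across all 7597 genes with enough counts, with calls at p values under 0.05 after Benjamini-Hochberg adjustment. Isoforms were tested with diffSpliceDGE at the same threshold and a change of at least 10 points. Splicing events needed 10 counts on each form. Intervals of pooled shares are exact binomial at 95%. Amplified cDNA molecules are not independent, so these intervals cover counting error only. The limit that a count of 0 allows is 3 counts per library. DESeq2 1.42.0, limma 3.58.1 and other filters were alternatives. Scripts were tested on simulated data. Sequences were read from hg38.

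A few listed genes are not reported here and are left out of the counts of their lists. The members and the gene lists were chosen with earlier results of these data known. The genes named were all members, PTBP1 and PTBP2, the gene overlapping HOXA9 and HOXA10 (used in place of the HOXA10-HOXA9 read-through gene, which has no entry under that name in GENCODE 44), and, of each other list, the genes called or, where none was called, the 2 with the highest mean level. Isoforms named held at least 10% of their gene's counts in a group mean and at least 10 counts in all. Genes named outside this rule are said to be so or given for their count of 0, or as markers. Same-numbered libraries did not deviate together (correlations of -0.0328 to 0.00889), so the numbers were not taken to pair them.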

Additional observations from a re-analysis of the deposited data

Results flagged for a closer look

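In 40 groups of 4 libraries (levels of the 10 members, inclusion of the exons of MYB, PBX3 and MEF2C, and shares of the leading isoforms), 3 values stood apart from the other 3 libraries of their group by Dixon's criterion for 4 samples. Chance alone marks about 1 in 20 groups of normally distributed values. HOXA10 in shSCR replicate 1 was at 92.8 CPM, with the other controls at 55.4 to 58.7 CPM. MEF2C in shPTBP1 replicate 2 was at 222 CPM, with the other knockdown libraries at 246 to 247 CPM. The share of HOXA7-201 in shPTBP1 replicate 4 was 78.9%, with the other 3 at 100%, on 19 HOXA7 counts. With 3 equal values, any differing value meets the criterion, so this flag says nothing of its size and the chance rate does not apply. For the levels of HOXA10 and MEF2C, the part of these libraries in the comparisons was measured by leaving each one out. For the share of HOXA7-201 it was not measured. The low MYB exon inclusion of shSCR replicate 2 (7.00%) and its 17 KMT2A counts did not meet the criterion.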

How the results depend on the processing

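The number of members called at the gene level stayed 0 under DESeq2, limma-voom, DESeq2 size factors, no filter on low counts, a filter at a mean count of 50, limma-trend on the CPM table (pseudocount 1), thinned libraries, the replicate block and each library left out. Genes called over the whole table numbered 184 to 358 with 1 library left out, against 421. Isoforms called over the whole table were 154 with limma diffSplice and 28 with a minimum change of 20 points, against 61, and 39 to 55 with 1 library left out. Member isoforms called rose from 0 to 1, MYB-203, with a mean of at least 10 counts per transcript and, chosen after seeing the data, with at least 20 counts over all libraries, and were 0 to 1 with 1 library left out, 1 without shPTBP1 replicate 2 or shSCR replicate 2. Member splicing events called were 0 to 1, with 0 without shSCR replicate 1 or 3. The MYB exon difference lay between -17.9 and -11.7 points and the PBX3 difference between 11.3 and 16.8 points with 1 library left out, where the PBX3 adjusted p was 0.0953 to 0.472. The causes of these shifts were not tested, beyond the fewer libraries or other thresholds of each setting.

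Under the replicate block, the numbers not being taken to pair the libraries, 323 genes, 50 isoforms, 0 members and 1 member event were called, and the MYB and PBX3 exons had adjusted p values of 0.0198 and 0.121. The block ended the call of CSF1R (adjusted p = 0.0723), as did the absence of a filter (0.0639). A depth of 1528449 to 1613342 counts per library leaves HOXA5, MEIS1, KMT2A and MLLT3 without a usable comparison. The edgeR p values set the difference between groups against the spread within groups, estimated with the help of all genes or transcripts tested. They speak for these 8 libraries only.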

Other observations

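The values in this paragraph belong to genes near the program that the rule for named genes did not take, and were picked after they were seen. FLT3, the receptor gene that is mutated in this cell line, had 4, 5, 6 and 3 counts in shPTBP1 and 12, 8, 6 and 9 in shSCR, or 2.93 ± 0.886 against 5.56 ± 1.41 CPM, and was below the filter. The CPM values did not overlap, on 53 counts in all. The nearest libraries, replicate 3 of each group at 3.95 and 4.00 CPM, had 6 counts each and differed only by library scaling. Groups did not overlap for 12.7% of the genes tested, a set that does not hold FLT3. MLLT1 (ENL), a partner gene closely related to MLLT3, had 0, 0, 12 and 15 counts in shPTBP1 and 28, 18, 14 and 21 in shSCR, a log2 fold change of -1.54 (interval -2.92 to -0.17, edgeR adjusted p = 0.203). The knockdown libraries split into 2 without a count and 2 within or near the control range. RUNX1 had 3, 4, 80 and 4 counts in shPTBP1 and 8, 2, 5 and 5 in shSCR, so that 1 library, shPTBP1 replicate 3, held most of its 111 counts, and it was below the filter.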
